A study of Mus musculus with 8 samples.

Results

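The MHC class II presentation genes comprise 10 genes of the mouse antigen presentation pathway, picked by name from the deposited expression table of 54532 genes: *H2-Aa*, *H2-Ab1*, *H2-Eb1*, *H2-DMa*, *H2-DMb1*, *H2-DMb2*, *H2-Oa*, *H2-Ob*, *Cd74* and *Ciita*. They were picked with their difference between the 2 cell fractions known, so their values in that contrast are a description and carry no p-value. All 10 passed the filter on low counts, as did 13560 genes in all. RNA-Seq was performed on *Zeb1*-/- LSK cells (Lin- C-KIT+ SCA-1+ bone marrow cells, the compartment that holds hematopoietic stem and early progenitor cells) of C57BL/6 mice aged 8 to 12 weeks, sorted into an EpCAM+ fraction (4 libraries) and an EpCAM- fraction (4 libraries) on day 14 after pIpC dosing ended. By the labels both fractions are *Zeb1*-/-, from *Mx1-Cre* acting on floxed *Zeb1* alleles. The extent of deletion in each fraction was not measured here, and no library of control mice was used here. The *Mx1* promoter answers to interferon, and pIpC, given to the mice of both fractions, is an inducer of interferon. The labels give 4 mice per genotype and do not say whether the EpCAM+ and EpCAM- libraries of a number came from the same mouse. Libraries held 15225714 to 17073546 counts in EpCAM+ cells and 14114491 to 15929923 in EpCAM- cells (exact two-sided permutation test, p = 0.114).

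The sorting labels could be read in the transcripts. *Epcam* reached 234, 161, 171 and 183 CPM (counts relative to the TMM-scaled library size) in EpCAM+ replicates 1 to 4 and 8.99, 3.77, 1.43 and 1.25 CPM in EpCAM- replicates 1 to 4. *Zeb1* itself was counted at 14.8 to 23.7 CPM in EpCAM+ and 9.49 to 14.0 CPM in EpCAM- libraries (log2 fold change 0.72, adjusted p = 0.00798, edgeR's quasi-likelihood test). In replicate number 2 it was near level (14.8 and 14.0 CPM), the call was lost without EpCAM+ replicates 1 and 4 (adjusted p = 0.0694), and a count over the whole gene does not tell a deleted transcript from an intact one. *Kit*, the receptor used in the LSK gate, lay between 155 and 328 CPM in all 8 libraries. *Ly6a*, which encodes SCA-1, differed between the fractions without overlap, at 116 to 351 CPM in EpCAM+ and 15.7 to 71.7 CPM in EpCAM- libraries. Its log2 fold change was 2.28 (adjusted p = 0.00658, edgeR's quasi-likelihood test). EpCAM- replicates 3 and 4 were the lowest for *Ly6a*, with 16.4 and 15.7 CPM. *Ptprc*, the pan-leukocyte CD45, was present at 119 CPM or more in each library.

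MHC class II molecules carry peptides from the endosomal pathway to CD4+ T cells. The α and β chains of I-A are encoded by *H2-Aa* and *H2-Ab1*, and *H2-Eb1* encodes the β chain of I-E. C57BL/6 mice have no functional *Ea* gene and so display I-A alone. CD74, the invariant chain, guides the αβ pair to endosomes and blocks its groove. H2-DM (*H2-DMa* with *H2-DMb1* or *H2-DMb2*) then exchanges the CD74 remnant for peptide, and H2-DO (*H2-Oa* with *H2-Ob*) restrains H2-DM. CIITA, the coactivator encoded by *Ciita*, is recruited by RFX, NF-Y and CREB to conserved X and Y elements in front of these genes. In bone marrow, class II is best known from dendritic cells, B cells and macrophages.

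In GRCm38, 8 of the 10 genes lie on chromosome 17, between 34092340 and 34316199, while *Cd74* and *Ciita* lie on other chromosomes. RefSeq promoters (GRCm38.p6, 250 bases before to 50 after a gene's start) were given for 7 of the 10. A pair of short patterns, written after these sequences had been read, was searched on both strands of 32851 such windows: ATGATG, letters from the X element, and TGATTGG, the Y element. The X letters stood in 3668 windows (11.2%) and the Y letters in 2568 (7.82%). X followed 15 to 45 bases later by Y, without overlap and on the same strand, stood in 17 windows (0.0517%), 4 of them those of *H2-Eb1*, *H2-Ob*, *H2-DMb1* and *H2-DMb2*. The windows given for *H2-DMa* end at 34122881 and 34125567, well before the counted gene begins at 34135182, and are not read further, and that of *H2-DMb2* lies inside the counted gene, which begins at 34143307. On the gene's own strand the Y letters were in the windows of all 6 other genes and the X letters in 4 of them. The stretches of 67 bases around Y are given for the genes whose stretch does not touch an annotated UTR, and for *H2-Eb2*, a class II locus with almost no counts, to set strongly and weakly counted genes side by side. Capitals mark the letters ATGATG, a part of X, and TGATTGG, and each stretch reads along its gene's own strand. A stretch without the first capitals is not shown to lack an X element.
H2-Eb1: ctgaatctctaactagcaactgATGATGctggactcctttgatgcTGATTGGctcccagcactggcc
H2-Aa: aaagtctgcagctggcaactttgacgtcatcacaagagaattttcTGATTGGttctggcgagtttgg
H2-Ob: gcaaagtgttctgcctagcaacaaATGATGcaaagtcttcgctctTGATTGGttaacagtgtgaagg
H2-DMb2: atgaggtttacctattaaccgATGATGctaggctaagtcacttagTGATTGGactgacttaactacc
H2-Eb2: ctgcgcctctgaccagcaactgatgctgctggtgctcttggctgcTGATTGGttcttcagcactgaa

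These stretches span chr17:34305761-34305827 (*H2-Eb1*, plus strand), chr17:34287852-34287918 (*H2-Aa*, minus strand), chr17:34238801-34238867 (*H2-Ob*, plus strand), chr17:34145112-34145178 (*H2-DMb2*, plus strand) and chr17:34325528-34325594 (*H2-Eb2*, plus strand). From the first base of the X letters to the first base of Y there were 23 bases in *H2-Eb1*, 21 in *H2-Ob* and 24 in *H2-DMb2*. Y began 61 bases before the start of *H2-Eb1*, 50 before that of *H2-Aa*, 59 before that of *H2-Ob*, 92 before that of *H2-DMb2* and 102 before that of *H2-Eb2*, counted from the RefSeq start. *H2-Aa* and *H2-Eb2* held Y without the X letters used here. A match is a description of letters, and no match says only that these letters are not in the window. The genes with the same pair of letters differed widely in counts, from *H2-Eb1* with 2093 to 23245 counts in EpCAM+ libraries to *H2-DMb2* with 158 to 622.

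Class II transcripts were higher in *Zeb1*-/- EpCAM+ cells in each of the 40 comparisons of a gene within a replicate number (10 genes, 4 numbers). Summed over the 10 genes, EpCAM+ replicates 1 to 4 held 17238, 1791.5, 4919.8 and 17823 CPM, which was 1.73%, 0.189%, 0.516% and 1.78% of all counts. EpCAM- replicates 1 to 4 held 959, 606, 592 and 623 CPM, or 0.0965%, 0.0580%, 0.0575% and 0.0590% of all counts. The lowest EpCAM+ library was therefore above the highest EpCAM- library, and the EpCAM+ libraries differed more among themselves than the EpCAM- libraries did. In 8 of the 10 genes all 4 EpCAM+ values lay above all 4 EpCAM- values, *H2-DMa* and *H2-Ob* being the exceptions. Of all 13560 tested genes, 20.1% did so, and nothing is read from this count, since the genes were picked for the contrast. The median log2 fold change of the 10 genes was 3.28, with a range of 0.68 to 6.13, against 0.02 over all tested genes. In sorted bulk samples, a smaller number of class II-expressing cells and less class II RNA in each cell cannot be told apart.

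**Figure D1:**
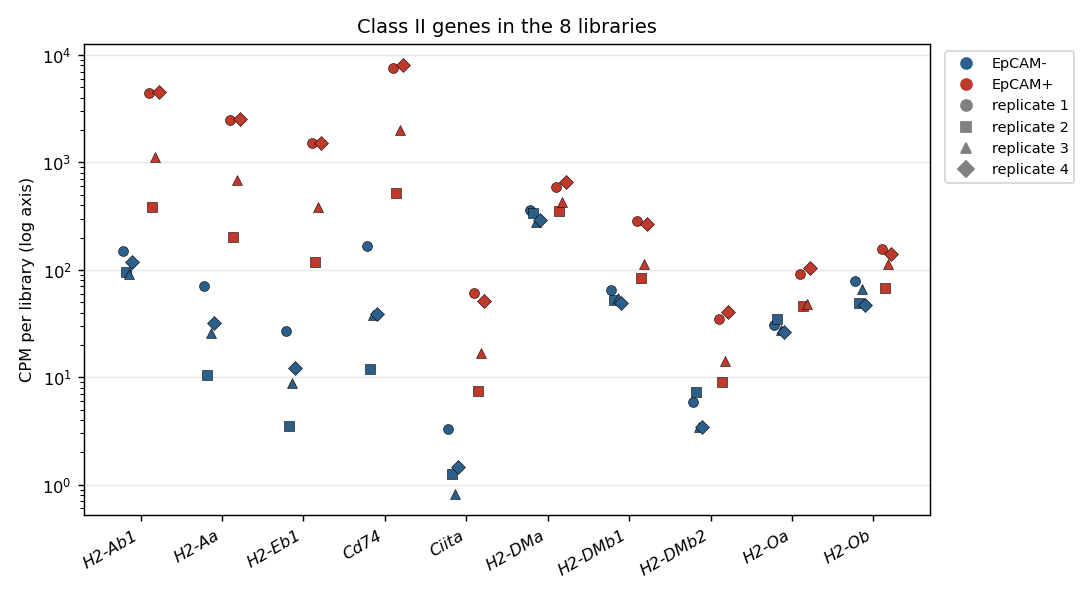
CPM of each of the 10 class II genes (log axis) in the 4 EpCAM- libraries (blue) and the 4 EpCAM+ libraries (red), with 1 symbol per replicate number. EpCAM+ replicates 1 and 4 are the highest and EpCAM+ replicate 2 the lowest of the EpCAM+ libraries for all 10 genes, and the fractions overlap for H2-DMa and H2-Ob alone.

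Among the peptide-binding chains, *H2-Ab1* (ENSMUSG00000073421) was counted at 4455, 382, 1119.6 and 4529.9 CPM in EpCAM+ replicates 1 to 4. In EpCAM- replicates 1 to 4 it stood at 150.4, 95.5, 91.2 and 118 CPM. *H2-Ab1* was thus readily counted in the EpCAM- fraction too, with 1291 to 2410 counts per library. The log2 fold change was 4.53 (standard error 0.70), and the ratios within replicate numbers 1 to 4 were 29.6, 4.00, 12.3 and 38.4. Its partner *H2-Aa* (ENSMUSG00000036594) held 2459, 203, 691 and 2517 CPM in the EpCAM+ libraries and 70.6, 10.5, 25.6 and 32.0 CPM in the EpCAM- libraries (log2 fold change 5.40, standard error 0.86). The 2 chains of I-A did not keep 1 ratio across the fractions. Counts of *H2-Aa* were 0.532 to 0.617 times those of *H2-Ab1* in EpCAM+ libraries and 0.110 to 0.469 times in EpCAM- libraries, without overlap.

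*H2-Eb1* (ENSMUSG00000060586), whose product has no I-E partner in this strain, followed the I-A genes. It held 1519.7, 119, 386 and 1501 CPM in EpCAM+ replicates 1 to 4 and 27.0, 3.55, 8.87 and 12.1 CPM in EpCAM- replicates 1 to 4. Its log2 fold change was 6.08 (standard error 0.90). Relative to *H2-Ab1* its counts stayed within 0.310 and 0.345 in the EpCAM+ libraries, although their levels spanned a 12.8-fold range, and fell between 0.0372 and 0.180 in the EpCAM- libraries. A pair of further class II loci of the region had almost no counts. *H2-Ea-ps*, the defective *Ea* gene of this strain, had 0 counts in each of the 8 libraries, and *H2-Eb2* had 0 to 5 counts.

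*Cd74* (ENSMUSG00000024610), the invariant chain, was the most abundant class II gene of the EpCAM+ fraction. It was counted at 7586, 519.5, 1987 and 8006 CPM in EpCAM+ replicates 1 to 4 and at 168, 11.8, 38.3 and 38.8 CPM in EpCAM- replicates 1 to 4. The log2 fold change was 6.13 (standard error 1.06), the largest of the 10 genes. EpCAM+ replicate 2, the lowest EpCAM+ library, was still above EpCAM- replicate 1, the highest EpCAM- library. The ratios within replicate numbers 1 to 4 were 45.2, 43.9, 51.9 and 206. The first 3 numbers thus gave near-equal ratios although replicate 1 was far above replicate 2 in both fractions.

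*Ciita* (ENSMUSG00000022504), the coactivator of the pathway, was a low-abundance transcript in both fractions. EpCAM+ replicates 1 to 4 held 61.3, 7.37, 16.7 and 51.7 CPM (130 to 937 counts) and EpCAM- replicates 1 to 4 held 3.31, 1.26, 0.819 and 1.47 CPM (12 to 53 counts). Replicates 1 and 4 were again the top pair of the EpCAM+ libraries and replicate 2 the lowest, and the fractions did not overlap. The log2 fold change was 4.29 (standard error 0.70). *Ciita* overlaps *Dexi*, a gene on the other strand with up to 745 counts in a library, and whether strand was used in counting is not given in the sources used here, so reads from the overlap cannot be told apart.

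The H2-DM genes, the peptide editors of the endosome, differed less between the fractions, and their α and β genes did so unequally. *H2-DMa* (ENSMUSG00000037649) held 591, 354, 428 and 663 CPM in EpCAM+ replicates 1 to 4 and 360.2, 339, 276 and 294 CPM in EpCAM- replicates 1 to 4. EpCAM+ replicate 2 lay below EpCAM- replicate 1, so the fractions overlapped, and the log2 fold change was 0.68 (standard error 0.18). *H2-DMb1* (ENSMUSG00000079547) held 286, 83.7, 115 and 268 CPM in EpCAM+ libraries and 64.3, 52.8, 54.1 and 49.6 CPM in EpCAM- libraries (log2 fold change 1.77, standard error 0.35). *H2-DMb2* (ENSMUSG00000037548) was far lower, at 34.7, 8.96, 14.3 and 40.3 CPM against 5.93, 7.33, 3.41 and 3.46 CPM (log2 fold change 2.28, standard error 0.47). Counts of *H2-DMa* were 2.06 to 4.23 times those of *H2-DMb1* in EpCAM+ and 5.10 to 6.41 times in EpCAM- libraries, without overlap, whereas the ratio of *H2-DMb2* to *H2-DMb1* overlapped between the fractions. The 2 β genes are near copies, with 13.7% of the windows of 100 bases in *H2-DMb1* and 12.9% of those in *H2-DMb2* found in the other transcript, so the split of reads between them is uncertain.

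The H2-DO genes, the inhibitors of H2-DM, showed small differences. *H2-Oa* (ENSMUSG00000024334) held 91.1, 46.6, 48.2 and 104 CPM in EpCAM+ replicates 1 to 4 and 30.8, 34.7, 27.6 and 26.6 CPM in EpCAM- replicates 1 to 4 (log2 fold change 1.28, standard error 0.25). *H2-Ob* (ENSMUSG00000041538) held 155, 67.2, 114 and 141 CPM against 78.8, 49.5, 66.4 and 46.9 CPM (log2 fold change 0.98, standard error 0.25). *H2-Oa* did not overlap between the fractions, while for *H2-Ob* EpCAM+ replicate 2 lay below EpCAM- replicate 1. An antisense gene, *BC051537*, overlaps *H2-Oa* and held up to 62 counts in a library.

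**Figure D2:**
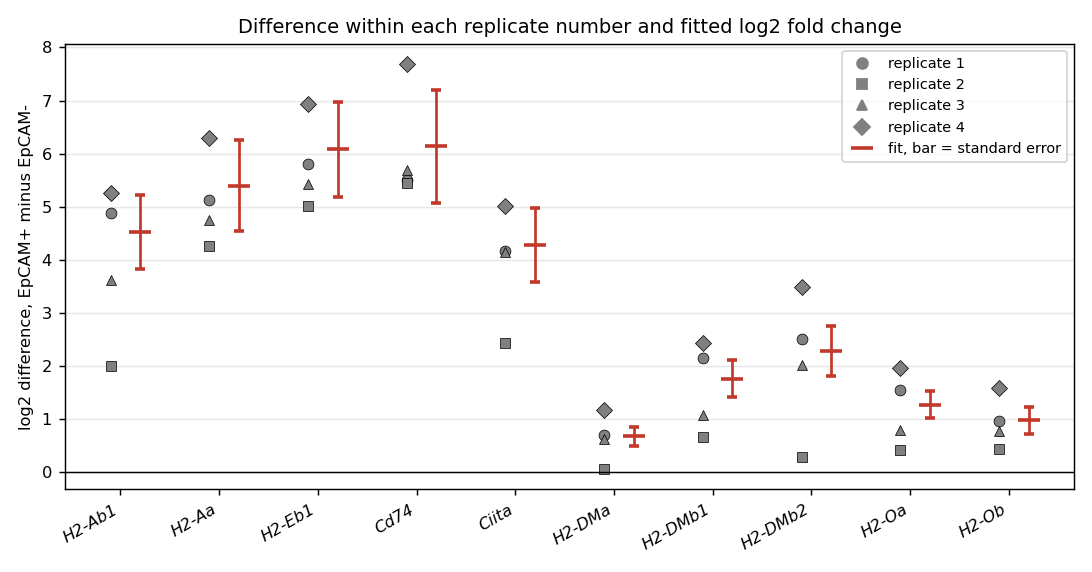
Difference of log2 CPM between the EpCAM+ and EpCAM- library of the same replicate number (grey symbols) and the fitted log2 fold change with its standard error (red) for each class II gene. All 40 grey symbols are above 0, and number 4 is the highest and number 2 the lowest for each of the 10 genes.

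The libraries of the EpCAM+ fraction stood apart from each other in these genes. For all 10, replicates 1 and 4 were the top pair, followed by replicate 3 and then replicate 2. Of all tested genes 10.4% had this order, and of those higher in EpCAM+ cells 17.7%. The standard deviation of log2 CPM over the 4 EpCAM+ libraries was 1.87 for *Cd74*, 1.77 for *H2-Eb1*, 1.73 for *H2-Aa*, 1.72 for *H2-Ab1* and 1.43 for *Ciita*, against a median of 0.16 over all tested genes. *Cd74* varied more than 99.8% of the tested genes. *H2-DMa* (0.42) and *H2-Ob* (0.54) varied least among the 10. In the EpCAM- fraction *Cd74* again varied most (1.56), while *H2-Ab1* varied by 0.33, and EpCAM- replicate 1 was the highest library for 8 of the 10 genes. Without EpCAM+ replicates 1 and 4 the median log2 fold change of the 10 genes was 1.96 in place of 3.28, with values of 4.27 for *Cd74*, 4.27 for *H2-Eb1*, 3.67 for *H2-Aa*, 2.78 for *Ciita*, 2.71 for *H2-Ab1* and 0.30 for *H2-DMa*. Since replicate 2 was the lowest EpCAM+ library for all 10 genes, the count of 8 genes without overlap does not rest on replicates 1 and 4.

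The makeup of class II reads differed as well as their amount. In EpCAM+ libraries *Cd74* gave 29.0% to 44.9% of the summed counts of the 10 genes and in EpCAM- libraries 1.95% to 17.5%. *H2-DMa* moved the other way, from 37.5% to 55.9% in EpCAM- libraries to 3.43% to 19.7% in EpCAM+ libraries. In EpCAM+ replicate 2, which had the fewest class II counts of its fraction, *H2-DMa* gave 19.7% and *Cd74* 29.0%. The shares of both genes did not overlap between the fractions, whichever EpCAM+ library is taken.

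**Figure D3:**
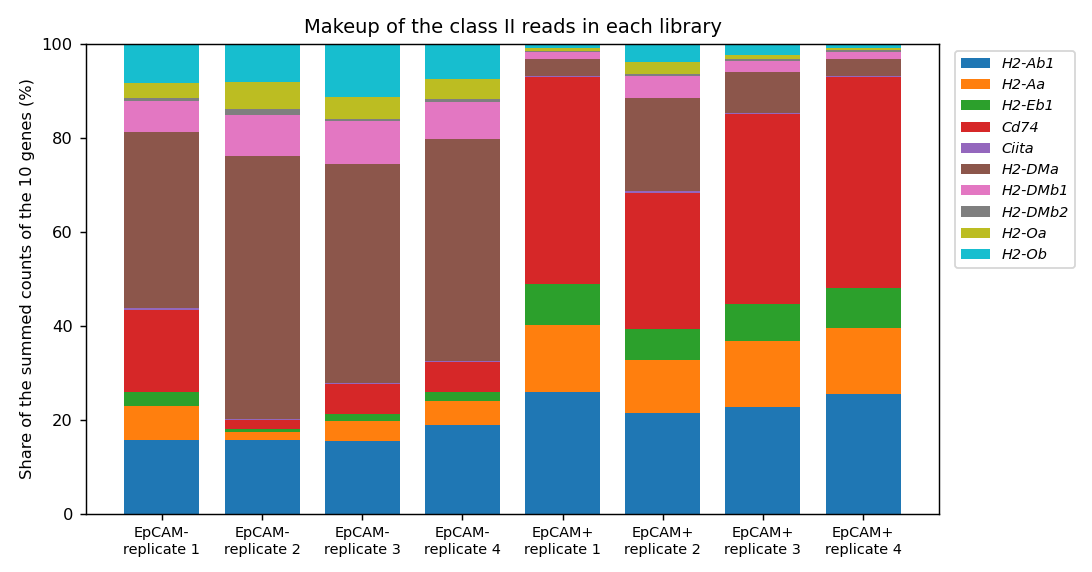
Share of the summed counts of the 10 class II genes that each gene gave in each library (percent, stacked to 100). H2-DMa is the widest band in the 4 EpCAM- libraries (37.5% to 55.9%), and Cd74 is the widest in the 4 EpCAM+ libraries (29.0% to 44.9%).

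Levels were set against each other per kilobase of the gene length given in the table (CPM per kb, mean ± SD, n = 4). In EpCAM+ cells the order was *Cd74* (3209 ± 2715), *H2-Ab1* (1601 ± 1332), *H2-Aa* (783 ± 638), *H2-Eb1* (744 ± 620.4), *H2-DMa* (310.2 ± 86.9), *H2-DMb1* (127 ± 69.8), *H2-Oa* (55.2 ± 22.5), *H2-Ob* (37.8 ± 12.3), *H2-DMb2* (14.4 ± 8.93) and *Ciita* (3.59 ± 2.75). Neighbours in this order overlapped in their 4 values, apart from *H2-DMa* and *H2-DMb1*. In EpCAM- cells *H2-DMa* came first (193 ± 23.7), followed by *H2-Ab1* (69.5 ± 16.6), *Cd74* (45.6 ± 49.9), *H2-DMb1* (37.2 ± 4.26), *H2-Oa* (22.8 ± 2.79), *H2-Ob* (19.2 ± 4.76), *H2-Aa* (18.5 ± 13.7), *H2-Eb1* (10.9 ± 8.50), *H2-DMb2* (2.94 ± 1.13) and *Ciita* (0.180 ± 0.115). There *H2-DMa* was apart from *H2-Ab1*, *H2-DMb1* from *H2-Oa* and *H2-DMb2* from *Ciita*, and the other neighbours overlapped. The third place of *Cd74* in EpCAM- cells rests on replicate 1, without which its mean was 21.0 CPM per kb. The EpCAM- means of *H2-Aa* and *H2-Eb1* also lean on replicate 1, their highest library there (37.7 and 22.8 CPM per kb). With the deposited FPKM in place of CPM per kb, 2 genes changed rank in EpCAM+ cells (by 1 place) and 4 in EpCAM- cells (by at most 2 places). The table's lengths were 1.00 (*H2-Eb1*) to 2.74 (*Ciita*) times those behind the FPKM, so distances between genes depended on the scale. In EpCAM+ cells the mean FPKM was 3444 for *Cd74*, 3371 for *H2-Ab1*, 1811 for *H2-Aa* and 750 for *H2-Eb1*.

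The genes whose profile over the 8 libraries was nearest to the mean profile of the 10 were *Id2*, *Sdc3*, *Lyz1*, *Crybg1*, *Tbc1d9*, *Gm9530*, *Havcr2* and *Pirb*. Several passed the filter through the EpCAM+ libraries alone, among them *Lyz1* (0 to 5 counts in EpCAM- libraries), *Gm9530* (0 to 2) and *Tbc1d9* (1 to 15). The EpCAM- part of such profiles rests largely on the prior count of 2, and nothing is read from it. Likeness was the root mean square difference of centred log2 CPM over the 8 libraries. It was 0.22 for *Id2* and 0.42 for *Pirb*, against a median of 1.76 for the tested genes outside the 10. That gap is set by the choice of the nearest genes. The 10 genes themselves lay 0.50 (*Ciita*) to 1.67 (*Cd74*) from their mean profile, which thus follows none of them closely. *Id2*, an inhibitor of E proteins, held 266, 34.8, 75.9 and 293 CPM in EpCAM+ replicates 1 to 4 and 23.6, 9.55, 10.6 and 9.93 CPM in EpCAM- replicates 1 to 4. It was highest in EpCAM+ replicates 1 and 4, which restates the likeness by which it was chosen. *Havcr2*, which encodes TIM-3, held 8.22 to 35.6 CPM in EpCAM+ and 1.37 to 4.62 CPM in EpCAM- libraries.

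Of the genes around *Ciita* in the pathway, lists were tested gene by gene in the fit across all 13560 genes (edgeR's quasi-likelihood test, p-values adjusted by Benjamini-Hochberg), in which 42.6% of genes passed, 21.8% higher and 20.8% lower in EpCAM+ cells. The DNA-binding complex was close to level. None of its 7 genes was higher and 1 was lower, *Nfyc*, a subunit of NF-Y (log2 fold change -0.36, standard error 0.08, adjusted p = 0.00496), with *Nfyb* lower as well when the replicate number was a block and *Rfxap* without EpCAM- replicate 2 (adjusted p = 0.0390). *Rfx5*, the defining subunit of RFX, held 11.5 to 13.2 CPM in EpCAM+ and 7.92 to 11.5 CPM in EpCAM- libraries. The list had a median of 0.04 on the log2 scale.

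Of 10 tested regulators of *Ciita*, 3 were higher and 2 lower in EpCAM+ cells. *Irf2* (log2 fold change 0.83, standard error 0.11, adjusted p = 0.000397) and *Irf1* (0.61), factors that act at the interferon-responsive promoter of *Ciita*, and *Socs1*, a feedback inhibitor of JAK signalling at cytokine receptors (1.07, standard error 0.21), rose, while *Ifngr1*, a chain of the interferon γ receptor (-0.61), and *Usf1* (-0.26) fell. With the replicate number as a block 5 were higher, *Jak1* and *Jak2*, kinases of the interferon γ receptor, being added. Without EpCAM+ replicates 1 and 4, 2 were higher and 1 lower, *Irf1* (adjusted p = 0.0942) and *Usf1* (0.0854) losing their calls. The call of *Irf1* was also lost without EpCAM- replicate 3 (adjusted p = 0.0501), that of *Ifngr1* in 4 of 8 fits with 1 library left out (0.0784 to 0.101 without EpCAM+ replicate 2 or 3 or EpCAM- replicate 3 or 4) and that of *Usf1* in 3 (0.0503 to 0.0672 without EpCAM+ replicate 3 or 4 or EpCAM- replicate 3). *Irf8*, a factor of dendritic cells, B cells and monocytes, held 475, 48.4, 117 and 388 CPM in EpCAM+ replicates 1 to 4 and 196, 157, 133 and 113 CPM in EpCAM- replicates 1 to 4. EpCAM+ replicates 2 and 3 were thus under all or most EpCAM- libraries for *Irf8*, and it did not pass the test (log2 fold change 0.78, adjusted p = 0.282). Without EpCAM+ replicate 2 it passed (1.12, adjusted p = 0.0415), and without EpCAM+ replicates 1 and 4 its direction turned (-0.87, adjusted p = 0.0778). *Pax5*, the B cell factor among the regulators, had 0 counts in all 8 libraries.

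Of 11 endosomal processing genes, 3 were higher and 3 lower in EpCAM+ cells. *Ctss*, the cathepsin that trims the invariant chain in dendritic cells and B cells, held 199.7, 49.0, 63.3 and 156 CPM in EpCAM+ replicates 1 to 4 and 44.1, 44.2, 22.8 and 30.2 CPM in EpCAM- replicates 1 to 4 (log2 fold change 1.72, standard error 0.42, adjusted p = 0.00850). *Cst3*, a secreted inhibitor of cathepsins and the most abundant gene of the list, held 3066, 648, 1169 and 3466 CPM against 565, 529, 431 and 377 CPM (log2 fold change 2.13, standard error 0.45, adjusted p = 0.00417). Both were highest in EpCAM+ replicates 1 and 4, and without those libraries *Ctss* no longer passed (0.66, adjusted p = 0.0761) while *Cst3* did (0.93), the only gene of the list still higher. *Lgmn*, an asparaginyl endopeptidase, rose by 1.05, and *Ctse* (-2.38), *Ctsz* (-0.59) and *Ctsd* (-0.24), 3 further cathepsins, fell. The calls of *Lgmn* and *Ctsd* were lost in 5 and 7 of 8 fits with 1 library left out (adjusted p 0.0629 to 0.0913 for *Lgmn*, which held without EpCAM+ replicate 3, EpCAM- replicate 1 and EpCAM- replicate 2, and 0.0507 to 0.124 for *Ctsd*, which held without EpCAM+ replicate 2). *Ctsl*, the cathepsin that acts on the invariant chain in thymic epithelium, held 48.4 to 65.5 CPM in EpCAM+ and 45.5 to 61.2 CPM in EpCAM- libraries.

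Of the 3 genes that set how long class II stays on the surface 2 were higher in EpCAM+ cells and 1 was lower. *Cd83*, which protects class II and CD86 from ubiquitination, held 15.3, 2.27, 5.87 and 15.9 CPM in EpCAM+ replicates 1 to 4 and 0 to 0.478 CPM in EpCAM- libraries (log2 fold change 5.76). *March1*, the ubiquitin ligase that CD83 opposes, was also higher (4.31), at 16.4, 1.02, 4.47 and 11.4 CPM against 0.148 to 0.874 CPM, while *March8*, a related ligase, fell (-0.60, standard error 0.15, adjusted p = 0.0102). *Cd83* (0 to 7 counts in EpCAM- libraries) and *March1* (2 to 14) passed the filter through the EpCAM+ libraries alone, so their calls had to follow that direction, and with 10 counts required in every library both dropped out. Of 6 tested costimulatory ligands 5 were higher and none lower, and 3 were higher with 10 counts required in every library, which *Cd86* and *Pdcd1lg2* did not reach. *Cd86* held 41.4, 9.13, 16.6 and 36.7 CPM in EpCAM+ replicates 1 to 4 and 0.441 to 2.31 CPM in EpCAM- libraries (4.05, standard error 0.55, adjusted p = 0.000490). *Pdcd1lg2* (2.74), *Icosl* (1.74), *Cd274* (1.09) and *Tnfsf4* (1.07) also rose, *Tnfsf4* losing its call without EpCAM+ replicate 2 (adjusted p = 0.0533) and *Icosl* without EpCAM+ replicates 1 and 4 (adjusted p = 0.0587). The log2 fold changes without those libraries were 4.48 for *Cd83*, 2.72 for *March1* and 3.03 for *Cd86*.

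**Figure D4:**
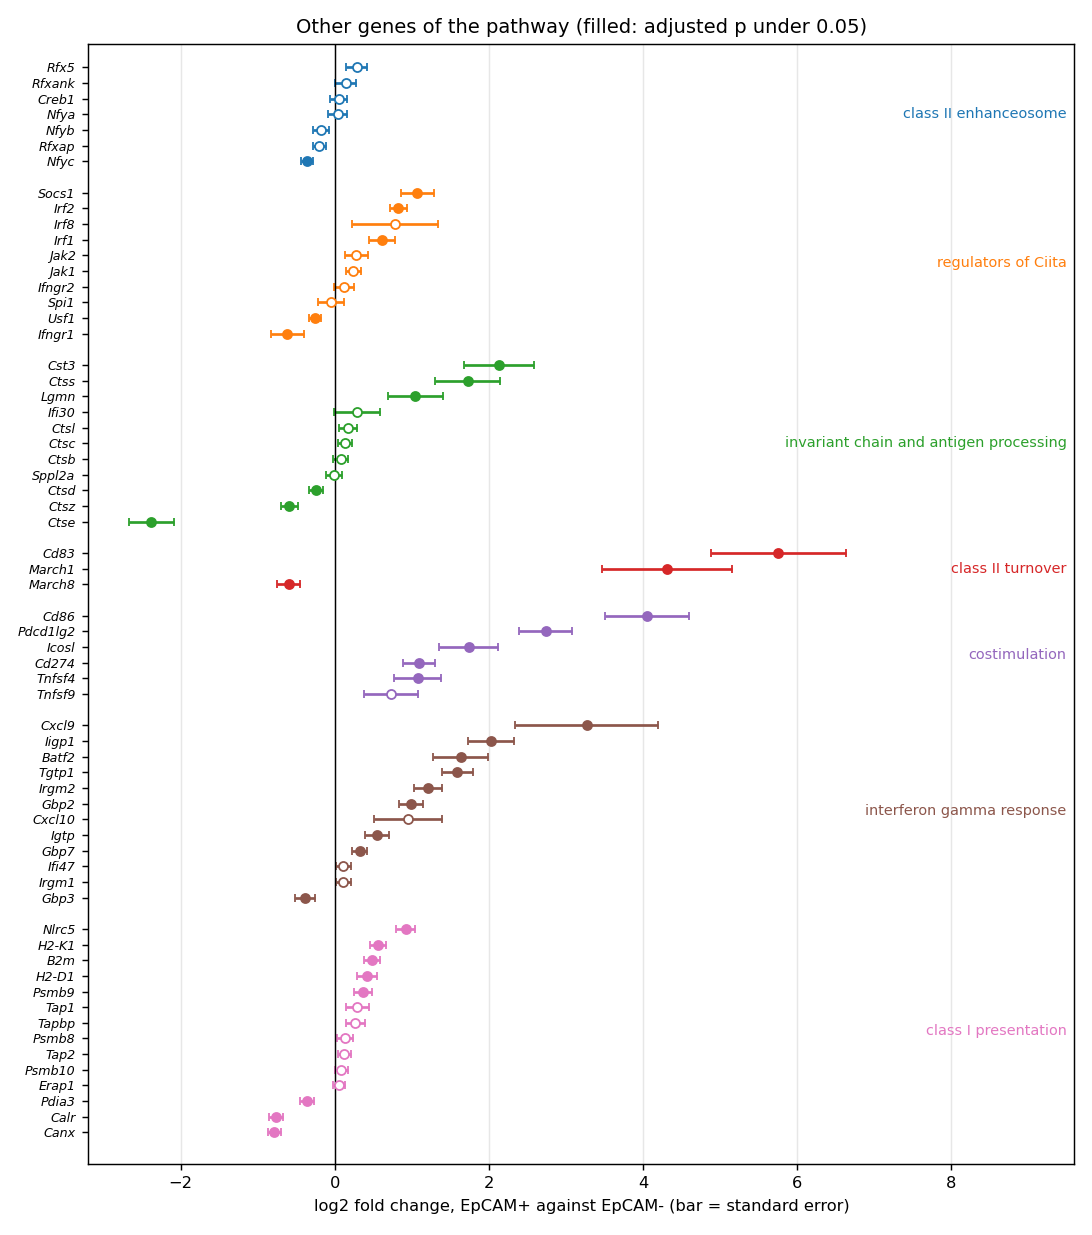
Log2 fold change of EpCAM+ against EpCAM- with its standard error for the tested genes of 7 pathway lists, filled where the adjusted p of edgeR's quasi-likelihood test was under 0.05. The enhanceosome genes lie within -0.36 and 0.29, while Cd83, March1 and Cd86 exceed 4. Cd83 and March1 passed the filter on low counts through the EpCAM+ libraries alone.

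Genes of interferon γ response and of class I presentation were compared with them. Of 12 tested interferon γ response genes 8 were higher and 1 was lower, with a median log2 fold change of 0.97, and 5 were higher without EpCAM+ replicates 1 and 4. The lower call, *Gbp3*, was lost without EpCAM+ replicate 2, 3 or 4 or EpCAM- replicate 1 or 2 (adjusted p 0.0501 to 0.0869). *Tgtp1* (1.59, standard error 0.20, adjusted p = 0.000365), *Iigp1* (2.03, standard error 0.30), *Irgm2* (1.21), *Gbp2* (0.99), *Batf2* (1.64) and *Gbp7* (0.32) were among those that rose, *Gbp7* losing its call without EpCAM+ replicate 3 (adjusted p = 0.0556) or EpCAM- replicate 3 (0.0567). Of 14 tested class I genes 5 were higher and 3 lower (median log2 fold change 0.20), with 3 higher without EpCAM- replicate 3 or without EpCAM+ replicates 1 and 4. *Nlrc5*, the class I counterpart of *Ciita*, held 26.3, 23.8, 27.4 and 28.3 CPM in EpCAM+ replicates 1 to 4 and 14.9, 10.7, 15.4 and 15.1 CPM in EpCAM- replicates 1 to 4 (0.92, standard error 0.13, adjusted p = 0.000572). Unlike *Ciita*, *Nlrc5* was nearly level over the EpCAM+ libraries. *H2-K1* (0.56) and *B2m* (0.48) rose, and the endoplasmic chaperones *Canx* (-0.78), *Calr* (-0.76) and *Pdia3* (-0.36) fell. Between the class II genes on chromosome 17, of the 5 other tested coding genes 1 was higher, *Psmb9* (0.36), and *Brd2*, *Tap1*, *Psmb8* and *Tap2* ranged from -0.06 to 0.29. *Psmb9* lost its call without EpCAM+ replicate 1 or 4 or EpCAM- replicate 3 (adjusted p 0.0689 to 0.0862), and with the replicate number as a block *Tap1* was higher too (adjusted p = 0.0260).

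Markers of other cells that express class II were read beside the class II genes. The study's lineage cocktail for LSK staining held antibodies to TER119, MAC1, GR1, B220, CD3e, CD4 and CD8a. A Lin- gate is set to leave out the erythroid, myeloid, B and T cells that carry these proteins. Of those of type 1 conventional dendritic cells (cDC1) 8 of 9 were higher in EpCAM+ cells, *Irf8* being the exception. Apart from *Wdfy4*, these 8 held 0 to 16 counts in each EpCAM- library and passed the filter through the EpCAM+ libraries alone, and with 10 counts required in every library *Irf8* and *Wdfy4* were left, *Wdfy4* being higher (log2 fold change 1.25, adjusted p = 0.00172). *Xcr1*, a chemokine receptor of these cells, held 147, 11.5, 35.8 and 131 CPM in EpCAM+ replicates 1 to 4 and 0.137 to 0.811 CPM in EpCAM- libraries, and *Clec9a* held 27.5, 1.25, 5.14 and 26.3 CPM against 0 to 0.562 CPM. All 9 had the library order of the class II genes, with EpCAM+ replicates 1 and 4 at the top and replicate 2 at the bottom. The summed list held 892, 119.9, 250.1 and 786 CPM in EpCAM+ and 236, 188, 163 and 141 CPM in EpCAM- replicates 1 to 4, and without *Irf8*, its most abundant gene, 417, 71.5, 133 and 398 CPM against 40.5, 30.6, 30.4 and 28.2 CPM. Without EpCAM+ replicates 1 and 4, 7 of the 9 were higher. The part of cDC1 markers in the class II result was not tested.

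Of general dendritic cell markers 4 of 6 tested were higher and none lower, with *Flt3*, which progenitors share, the most abundant. With EpCAM+ replicates 1 and 4 left out, 2 were higher and 1 was lower, *Zbtb46*. The summed list held 485, 348, 474 and 626 CPM in EpCAM+ and 296, 311, 237 and 202 CPM in EpCAM- replicates 1 to 4, and *Ccl22* was at 0 counts in all EpCAM- libraries. Of cDC2 markers 2 of 6 were higher and 1 was lower (66.6 to 75.6 CPM summed in EpCAM+, 35.6 to 64.9 CPM in EpCAM-, *Sirpa* the most abundant). Of these 1 was higher without EpCAM+ replicates 1 and 4, and 1 higher and none lower with 10 counts required in every library. Of plasmacytoid dendritic cell markers 3 of 6 were higher and 1 was lower, with sums of 261 to 334 CPM in EpCAM+ and 198 to 282 CPM in EpCAM- libraries, *Bst2* the most abundant and *Klk1* at 0 counts in all libraries. Of the 3, *Ccr9* (0 to 6 counts in EpCAM- libraries) and *Ly6d* (4 to 13) passed the filter through the EpCAM+ libraries alone, and *Runx2* was the 1 higher with 10 counts required in every library. Without EpCAM+ replicate 2 or EpCAM- replicate 1, 5 of the plasmacytoid markers were higher. Of the cDC2 and plasmacytoid lists 0 and 1 of the tested genes had the order of EpCAM+ libraries seen for class II, against 4 of 6 of the general list. Their part in the class II result was not tested.

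B cell markers were mixed. *Pax5* was at 0 counts in all 8 libraries and *Ebf1* at 0.221 CPM or less, whereas *Ms4a1* (12.8, 1.19, 2.29 and 7.26 CPM in EpCAM+ replicates 1 to 4 and 0 to 0.137 CPM in EpCAM- libraries) and *Fcrla* (46.2, 4.14, 10.8 and 47.5 CPM against 0.0740 to 0.874 CPM) rose. In all, 3 of 5 tested B cell markers were higher and none lower, with sums of 170.0, 82.0, 85.1 and 133 CPM in EpCAM+ and 57.4, 79.2, 53.5 and 47.7 CPM in EpCAM- replicates 1 to 4, with *Cd79b* the most abundant gene (69.6 CPM in EpCAM+ replicate 1), which did not pass (adjusted p = 0.120) but did with the replicate number as a block (adjusted p = 0.0370). Without EpCAM+ replicates 1 and 4, 2 B cell markers were higher and 3 plasma cell markers, and with 10 counts required in every library 0 and 2. *Ms4a1*, *Fcrla*, *Jchain*, *Mzb1* (2 to 6 counts in EpCAM- libraries) and *Pou2af1* (0 to 2) passed the filter through the EpCAM+ libraries alone. Plasma cell markers rose in 5 of 7 tested genes, led by *Jchain*, which held 3525, 221, 429 and 199 CPM in EpCAM+ replicates 1 to 4 and at most 0.273 CPM in EpCAM- libraries. Their sums were 4080.0, 534, 758 and 484 CPM in EpCAM+ and 332, 326, 303 and 228 CPM in EpCAM- replicates 1 to 4. *Jchain* was highest in EpCAM+ replicate 1 and near level in EpCAM+ replicates 2 and 4 (221 and 199 CPM). The order of EpCAM+ libraries seen for class II was held by 3 of 5 tested B cell markers and 1 of 7 plasma cell markers. The part of these markers in the class II result was not tested.

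Of 9 tested monocyte and macrophage markers none was higher and 4 were lower in EpCAM+ cells, with *Mertk* at 0 counts in all EpCAM- libraries, and with the replicate number as a block 1 was higher, *C1qc*, and *Ly6c2* was also lower (adjusted p = 4.06e-05). Without EpCAM+ replicate 2, *Ccr2* was higher. With 10 counts required in every library 2 were lower, *Cd14* and *Adgre1* having passed the filter through the EpCAM- libraries. Sums were 317, 35.1, 88.7 and 163 CPM in EpCAM+ and 788, 154, 369 and 225 CPM in EpCAM- replicates 1 to 4, with *Ly6c2* the most abundant gene. *Csf1r*, the receptor that defines the lineage, held 0.785 to 3.11 CPM in EpCAM+ and 16.99 to 30.8 CPM in EpCAM- libraries (log2 fold change -3.71, standard error 0.33, adjusted p = 0.000125). T cell markers summed to 1.10 to 6.47 CPM and natural killer cell markers to 0.546 to 6.81 CPM over the 8 libraries, with *Cd3e* and *Bcl11b* (T cell) and *Ncr1* (natural killer cell) at 0 counts in all EpCAM- libraries and *Cd4* and *Klrd1* the most abundant. Of T cell markers 1 was tested and was higher, *Cd4*, a call lost in 6 of 8 fits with 1 library left out (adjusted p 0.0502 to 0.123, holding without EpCAM+ replicate 1 and EpCAM- replicate 2) and without EpCAM+ replicates 1 and 4. No natural killer cell marker passed the filter. With 1 library left out 0 to 3 T cell markers (*Cd4*, *Trbc2* and *Cd5* without EpCAM- replicate 2) and 0 to 1 natural killer cell marker (*Klrd1*) were higher. Among the tested monocyte and macrophage markers 3 of 9 had the order of EpCAM+ libraries seen for class II. The part of these lists in the class II result was not tested.

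**Figure D5:**
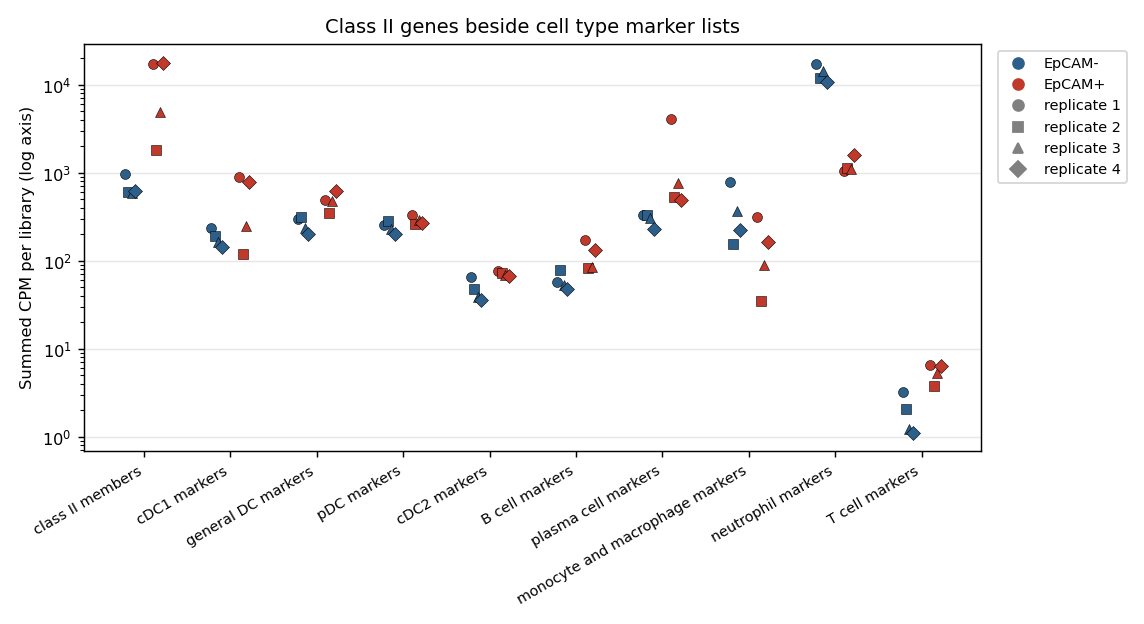
Summed CPM (log axis) of the 10 class II genes and of 9 cell type marker lists in each EpCAM- (blue) and EpCAM+ (red) library, with 1 symbol per replicate number. In the EpCAM+ fraction the class II genes have their 2 highest libraries in replicates 1 and 4 (17238 and 17823 CPM). So do the cDC1 list (892 and 786 CPM) and the general dendritic cell, B cell, monocyte and macrophage, and T cell lists. The plasma cell list is high in replicate 1 alone (4080.0 CPM).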

How the data were processed

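Per the labels and the study's methods, RNA from sorted cells was amplified (SMART-Seq v4) and sequenced in pairs. The authors aligned reads to GRCm38.p6 with STAR 2.6.1d and deposited whole-number read counts per gene from featureCounts 1.5.0-p3, not normalized, and FPKM, with log2 fold changes and p-values that the authors computed with DESeq2 1.20.0 before deposit and that were not used here. The table's gene lengths are not those behind the FPKM, which served as an alternative for levels. The annotation release and counting strand are not given in the sources used here. Amplified reads without molecular identifiers are not independent molecules, so read counts alone understate the counting error.

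Counts were filtered (filterByExpr), TMM-scaled and tested across all 13560 genes with edgeR 4.0.16 (quasi-likelihood, two-sided, Benjamini-Hochberg, threshold 0.05) in R 4.3.3. Standard errors came from the F statistic, and log2 CPM used a prior count of 2. Figures used Python 3.11.15 with matplotlib 3.10.9. On simulated counts with 200 genes changed 2-fold, 144 were recovered with 9 false calls of 153. The simulation gave all genes the same dispersion, had no pairing and changed a small share of genes. Its rates are therefore not those of this contrast. The 10 genes, the lists and the alternatives were chosen with earlier results of these data known. Text names genes of a pathway list that passed (at most 6, by adjusted p), the most abundant gene of a marker list, genes at 0 and the 8 genes of nearest profile, and any other gene was named after its values were seen. Ligase genes *March1* and *March8*, whose symbols the table holds as dates, were matched by identifier. Of the lists, 2 genes are not reported here and were left out of list counts and sums.

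Libraries with the same replicate number deviated together, so the numbers pair the libraries. The correlation across genes, which are not independent replicates, was 0.205 to 0.356 in 4 pairs. It was -0.216 to 0.0396 in 12 pairs of unlike number. The reported fit and its list counts did not use this pairing. The replicate number entered as a block in an alternative alone, which called 6818 genes against 5779. The labels give 4 mice per genotype but tie no library to a mouse and do not say what a number shares, so p-values measure the spread between these libraries. The libraries of a fraction differed beyond the counting noise of independent reads in all 12 pairs (chi-square divided by its degrees of freedom 10.3 to 97.4). Alternatives were DESeq2 1.42.0, 3 other scalings, 2 other filters, the block and each library left out.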

Additional observations from a re-analysis of the deposited data

Results flagged for a closer look

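Of 126 sets of 4 libraries examined (genes and list sums in each fraction), 9 held a library far from the other 3 (Dixon's test at 95%), where chance gives about 1 in 20. None of the 10 class II genes was among them. In the EpCAM+ fraction, summed plasma cell markers were at 4080.0 CPM in replicate 1 against 484 to 758 in the others. Summed neutrophil markers were at 1604 CPM in EpCAM+ replicate 4 against 1039 to 1129. *Irf1* (192 CPM against 139.6 to 146) and *Batf2* (10.7 CPM against 7.49 to 7.78) were highest in EpCAM+ replicate 1. In the EpCAM- fraction, summed regulators of *Ciita* were at 1361 CPM in replicate 1 against 1200.1 to 1209. *Tgtp1* (34.5 CPM against 19.5 to 20.4) and *Gbp2* (32.1 CPM against 20.1 to 21.5) were also highest in EpCAM- replicate 1, the library with the highest sum of class II genes in that fraction. *Usf1* was lowest in EpCAM- replicate 4 (54.6 CPM against 64.4 to 64.8) and *Nlrc5* in EpCAM- replicate 2 (10.7 CPM against 14.9 to 15.4).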

How the results depend on the processing

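All 10 class II genes stayed higher in EpCAM+ cells in each alternative run, and no called gene named here reversed. Of genes without a call, *Irf8* (-0.87), *Tap1* (-0.022), *Tap2* (-0.038) and *Psmb8* (-0.0015) turned without EpCAM+ replicates 1 and 4. With upper-quartile scaling the median of all genes rose to 0.11 and calls split into 3642 higher and 2083 lower, and with library totals into 3476 and 2066 (2961 and 2818 in the reported fit). Pathway genes called lower then numbered 7 with upper-quartile scaling (11 reported), *Usf1* and *Ctsd* lost their calls under both scalings, and *Ifngr1* under the first. Requiring 10 counts in every library left 20 marker genes called higher (38 reported). With the replicate number as a block 6818 genes were called (3465 higher, 3353 lower) against 5779, pathway genes called higher numbered 32 against 26, 5724 of the 5779 were shared and no gene named here lost its call, and beside *Nfyb*, *Jak1* with *Jak2*, and *C1qc* no list count moved by over 1.5 times. Leaving out 1 library gave 2391 to 3089 genes higher and 2271 to 2950 lower, 22 to 30 pathway genes higher and 7 to 10 lower (7 without EpCAM+ replicate 3), and 2.95 to 3.59 as the median log2 fold change of the class II genes. Without EpCAM+ replicates 1 and 4, chosen after seeing the data, 1819 genes were higher and 1856 lower, 17 pathway genes were higher, and the class II median was 1.96. The cause of these shifts was not tested. At this depth 3 counts correspond to 0.168 to 0.222 CPM, which limits *Clec9a* and other genes close to it in EpCAM- cells.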

Other observations

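Progenitor markers and epithelial genes, which the class II account does not use, were also read. Of 10 progenitor markers 9 were higher in EpCAM+ cells and none lower, with sums of 2357 to 2680 CPM in EpCAM+ and 1252 to 1855 CPM in EpCAM- libraries and *Cd34* the most abundant (the 1 without a call, adjusted p = 0.104, and higher with the replicate number as a block, adjusted p = 0.0485). With 1 library left out 7 to 8 were higher, and 6 without EpCAM+ replicates 1 and 4. *Kit* lost its call in 5 of 8 fits with 1 library left out (adjusted p 0.0517 to 0.0832 without EpCAM+ replicate 1 or 3 or EpCAM- replicate 2, 3 or 4, edgeR's quasi-likelihood test). *Hlf*, a transcription factor of stem cells, held 109, 112, 165 and 110.2 CPM in EpCAM+ replicates 1 to 4 and 46.8, 28.9, 33.9 and 21.8 CPM in EpCAM- replicates 1 to 4. Its EpCAM+ libraries did not take the order of the class II genes, with replicate 3 the highest.

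Of 4 tested epithelial genes all 4 were higher, with *Krt18* at 166 to 190.1 CPM against 70.5 to 95.5 CPM, while *Krt5*, *Krt14* and *Psmb11* were at 0 counts in all 8 libraries. Neutrophil markers had 3 of 8 tested genes lower and none higher, led by *Mpo*, at 566 to 1175 CPM in EpCAM+ and 8739 to 12205 CPM in EpCAM- libraries. Mast cell and basophil markers had 4 of 6 lower and none higher, with *Cpa3* the most abundant (49.9 to 63.6 CPM against 183 to 407 CPM).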
